A study of Rattus norvegicus with 10 samples.

Results

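The G1 cyclins, their kinases, the kinase inhibitor *Cdkn1b* and the pocket protein *Rb1* were followed in fetal rat hearts. The genes were chosen by name from the deposited expression table, with earlier results of these data known, so that their counts are descriptions. They are *Ccnd1*, *Ccnd2*, *Ccnd3*, *Ccne1*, *Ccne2*, *Cdk2*, *Cdk4*, *Cdk6*, *Cdkn1b* and *Rb1*, and make up 10 of the 18025 genes listed. All 10 passed the filter on low values, as did 14542 genes in total. The hearts were taken at embryonic day 19.5 from wild-type Sprague-Dawley fetuses, and the dams were 3 months old. Dams of the control group (CON, 5 libraries) received citric acid buffer, and dams of the hyperglycemic group (HG, 5 libraries) received streptozotocin, which is toxic to the insulin-producing beta cells of the pancreas. The injections were intraperitoneal, on each of 3 days and after a night without food. HG dams had a non-fasting blood glucose above 16 mM when it was measured 7 days later. The series record places the assignment to groups before mating, whereas the methods of the study place mating first. The labels do not say whether the hearts of a group came from separate dams or litters, so that all p-values measure the spread between these libraries. The labels give heart as the source of the RNA, as do the methods, the results text and a supplementary legend of the study. Another legend speaks of cardiomyocytes isolated from the fetuses. Markers of red cells, fibroblasts and endothelium were present in all libraries, with values given below. Which source was sequenced was not tested further. Fetal sex is not given in the labels.

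The D cyclins bind the kinases Cdk4 and Cdk6 and carry the signals of growth factors to the cell cycle. These complexes phosphorylate the retinoblastoma protein, the product of *Rb1*, which then releases E2F transcription factors. The E cyclins, which are themselves E2F targets, bind Cdk2 and take the cell from G1 into S phase, and the product of *Cdkn1b*, p27Kip1, binds the cyclin and kinase complexes and blocks Cdk2. Cardiomyocytes still divide in the fetal heart and largely leave the cell cycle soon after birth.

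The promoter of *Cdk4* is shown because *Cdk4* ranked first by adjusted p among the G1 genes and because the CACGTG E-box, a word that dimers of the Myc family are known to bind, is present in it more than once. The sequence holds the 250 bases before the annotated start of *Cdk4* on the plus strand of chr7:64771203-64771452 in the RefSeq table of the GRCr8 assembly, written 5′ to 3′, with each CACGTG in capitals.
Cdk4: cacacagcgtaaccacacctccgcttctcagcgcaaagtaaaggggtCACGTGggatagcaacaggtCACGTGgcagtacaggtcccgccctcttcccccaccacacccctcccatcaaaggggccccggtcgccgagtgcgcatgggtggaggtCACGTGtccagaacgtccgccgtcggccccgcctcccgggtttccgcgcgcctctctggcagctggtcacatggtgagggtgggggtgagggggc
The 3 E-boxes begin at positions -203, -183 and -95 relative to the start. RefSeq promoters of 300 bases, of which 250 precede the start and 50 follow it, were matched for 6 of the 10 genes (*Ccnd3*, *Ccne1*, *Cdk2*, *Cdk4*, *Cdkn1b* and *Rb1*). CACGTG, which reads the same on both strands, was found in 1 of these 6 promoters and in 6.42% of the 33469 promoters of the table. The E2F words TTTCCCGC, TTTCGCGC, TTTGCCGC and TTTGGCGC, searched on both strands, were found in 1 of the 6, that of *Rb1* at position 2, and in 2.14% of all promoters. The 6 promoters held 64.7 to 79.7% of the bases G and C, beside a median of 51.7% over the table. The shares over all promoters are therefore not those of promoters of like base content. A matched word is a description of the letters and no binding site was measured.

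One library stood apart in the RNA of another organ. Liver markers stood apart in CON 3, with a sum of 75.7 FPKM (*Alb* at 34.9 FPKM and *Afp* at 24.3 FPKM). The sums were 3.12 to 7.42 FPKM in the other CON libraries and 0.852 to 2.40 FPKM in HG. Each CON library thus lay above each HG library, also without CON 3. Of the 5 liver markers 4 were lower in HG (3 of 5 with median-of-ratios factors, which are explained below).

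Of the 10 genes, 6 were higher in HG than in CON at an adjusted p under 0.05 (limma with Benjamini-Hochberg adjustment over all 14542 genes), namely *Ccnd1*, *Ccne1*, *Ccne2*, *Cdk2*, *Cdk4* and *Cdkn1b*. None of the 10 was lower. Without CON 3 the same 6 genes were called, beside 3617 higher and 1503 lower among all 14545 genes then tested. For comparison, with all 10 libraries 28.4% of all genes tested were higher and 11.8% were lower. The log2 fold changes of the 6 lay between 0.16 and 0.38. At an adjusted p under 0.05 and past the study's fold threshold (absolute log2 fold change over 1) stood 0 of the 10 genes, beside 1.94% of all genes. In 5 of the 10, each HG library lay above each CON library, against 19.3% of all genes. The median log2 fold change of the 10 genes was 0.18, beside 0.09 over all genes. In bulk RNA, whether of heart tissue or of isolated cells, fewer cells of a type and less mRNA per cell cannot be told apart, which holds for each value below.

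FPKM are relative to the rest of the library, so the scaling was also changed. With division of the FPKM by median-of-ratios factors (0.964 to 0.972 in CON, 1.01 to 1.06 in HG), by which the typical gene shows no change, 4 of the 10 genes were higher in HG (*Ccnd1*, *Ccne1*, *Cdk2* and *Cdk4*) and 0 were lower. Under this scaling 15.6% of all genes were higher and 17.5% were lower. The median log2 fold change was then 0.09 for the 10 genes and 0.01 for all genes. *Ccne2* and *Cdkn1b* were not called under this scaling.

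**Figure D1:**
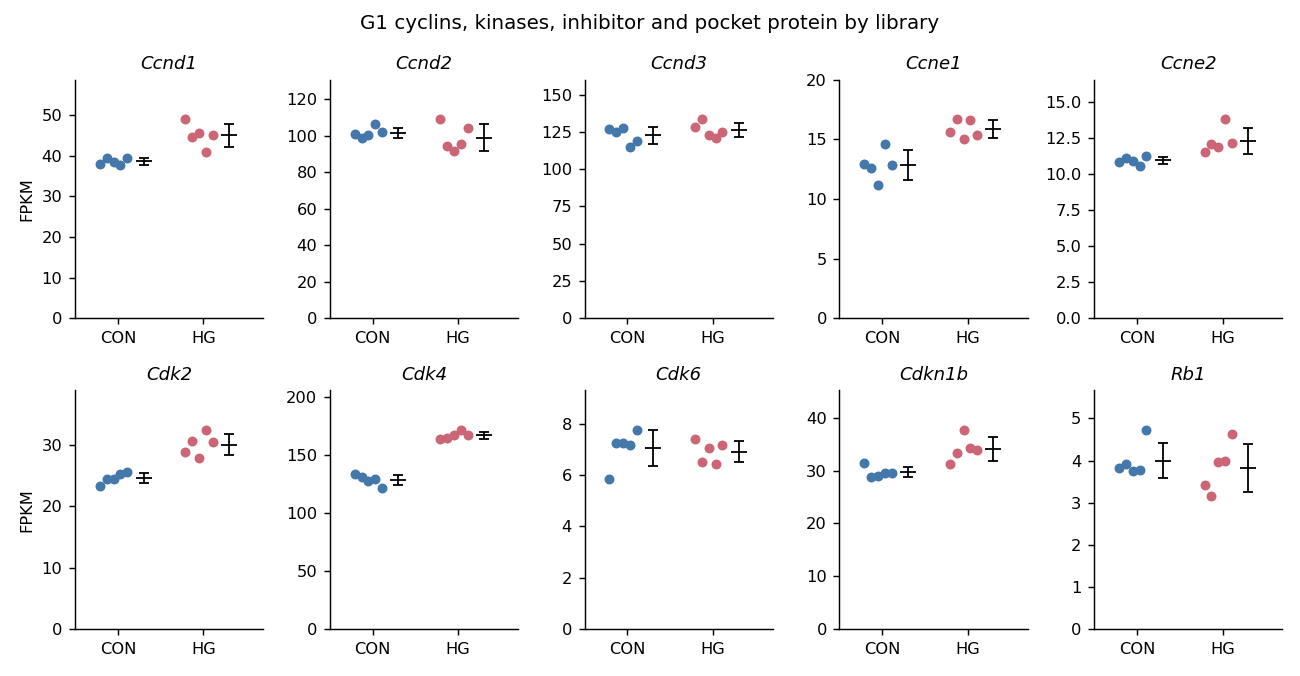
FPKM of each of the 10 genes in each library (vertical axes, each starting at 0) for the CON and HG groups, with the libraries in order of their number as points and the mean ± SD (n = 5) as bars. The groups were apart in *Ccnd1*, *Ccne1*, *Ccne2*, *Cdk2* and *Cdk4*, touched in *Cdkn1b* (31.4 FPKM in CON 1 and 31.3 FPKM in HG 1) and overlapped in the other genes.

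**Figure D2:**
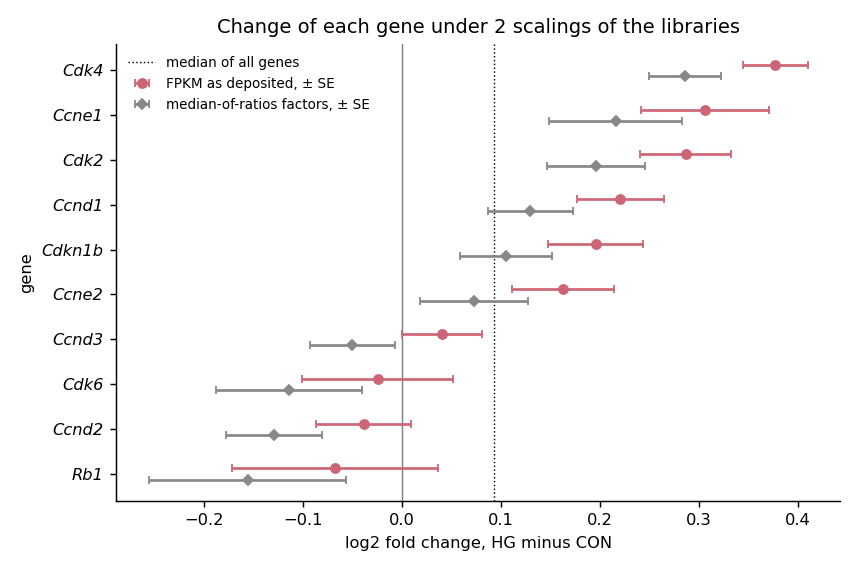
log2 fold change of each gene (horizontal axis, HG minus CON, ± SE of the limma fit, n = 5 libraries per group) with FPKM as deposited (circles) and with median-of-ratios factors (diamonds). The dotted line is the median of all genes with FPKM as deposited, 0.09, and *Cdk4* had the highest value under both scalings, 0.38 and 0.29.

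Among the D cyclins, *Ccnd1* rose and the more abundant *Ccnd2* and *Ccnd3* did not pass the test. *Ccnd1* encodes cyclin D1, the D cyclin best known as a target of growth factor signals. *Ccnd1* (NCBI Gene 58919) was at 37.9, 39.4, 38.6, 37.8 and 39.5 FPKM in CON 1 to 5 and at 49.0, 44.7, 45.6, 41.0 and 45.2 FPKM in HG 1 to 5. The lowest HG library, HG 4, was above the highest CON library, CON 5. The means were 38.7 ± 0.818 FPKM for CON and 45.1 ± 2.83 FPKM for HG (± SD over 5 libraries), a difference of 0.22 on the log2 scale (SE 0.0440, 95% confidence interval 0.12 to 0.32, adjusted p = 0.00192). This is a 1.17-fold higher level (interval 1.09 to 1.25). The coefficient of variation of *Ccnd1* was 2.12% in CON, next to 1.96% from read counting alone, and 6.28% in HG, next to 1.82% from counting.

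*Ccnd2* encodes cyclin D2, which is expressed in dividing cardiomyocytes. *Ccnd2* (NCBI Gene 64033) was at 101, 98.5, 100.1, 106 and 102 FPKM in CON 1 to 5 and at 109, 94.4, 91.8, 95.3 and 104 FPKM in HG 1 to 5. The CON libraries lay inside the wider range of HG, of which 3 libraries were below and 1 was above all of CON. On the log2 scale HG minus CON was -0.04 (SE 0.0479, 95% confidence interval -0.14 to 0.07, adjusted p = 0.558). With median-of-ratios factors it was -0.13 (adjusted p = 0.0592).

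*Ccnd3* encodes cyclin D3, the most abundant D cyclin in these hearts. *Ccnd3* (NCBI Gene 25193) was at 127, 125, 128, 115 and 119 FPKM in CON 1 to 5 and at 128, 133, 123, 121 and 125 FPKM in HG 1 to 5. The groups overlapped, with CON 4 the lowest and HG 2 the highest library. The log2 fold change was 0.04 (SE 0.0400, 95% confidence interval -0.05 to 0.13, adjusted p = 0.451) and took the opposite sign, -0.05, with median-of-ratios factors.

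The share of each D cyclin in their summed FPKM does not depend on how libraries are scaled to each other. *Ccnd1* held 14.3, 15.0, 14.5, 14.6 and 15.2% of the sum in CON 1 to 5 and 17.1, 16.4, 17.5, 15.9 and 16.5% in HG 1 to 5. The share was higher in each HG library than in each CON library, with means of 14.7 ± 0.377% and 16.7 ± 0.625% (SD, n = 5 each). *Ccnd2* held 38.6 ± 1.49% for CON and 36.6 ± 1.60% for HG. *Ccnd3* held 46.7 ± 1.57% and 46.7 ± 1.63%, and for both genes the groups overlapped. The summed FPKM of the D cyclins were 263 ± 3.37 for CON and 270.1 ± 11.5 for HG and overlapped too. These shares are descriptions and were not tested.

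Of the kinases that the D cyclins activate, *Cdk4* rose and *Cdk6* did not pass the test. *Cdk4* encodes the more abundant of these kinases here. *Cdk4* (NCBI Gene 94201) was at 134, 131, 127, 129 and 122 FPKM in CON 1 to 5 and at 164, 164, 167, 171 and 167 FPKM in HG 1 to 5. No HG library came near the CON range, and the lowest of HG was 164 FPKM against a highest of 134 FPKM in CON. The means were 128 ± 4.57 FPKM for CON and 167 ± 2.94 FPKM for HG (± SD over 5 libraries). On the log2 scale HG minus CON was 0.38 (SE 0.0327, 95% confidence interval 0.31 to 0.45, adjusted p = 6.29e-06), a 1.30-fold higher level (interval 1.24 to 1.36). With median-of-ratios factors the log2 fold change was 0.29 (adjusted p = 9.57e-05). Over all 22 alternative settings the adjusted p of *Cdk4* lay between 1.76e-06 and 0.000423. The promoter printed above with its 3 E-boxes is that of this gene.

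*Cdk6* encodes the other kinase partner of the D cyclins. *Cdk6* (NCBI Gene 114483) was at 5.84, 7.26, 7.25, 7.18 and 7.75 FPKM in CON 1 to 5 and at 7.39, 6.51, 7.06, 6.43 and 7.18 FPKM in HG 1 to 5. All HG libraries lay inside the CON range, which CON 1 extended downwards. On the log2 scale HG minus CON was -0.02 (SE 0.0762, 95% confidence interval -0.19 to 0.14, adjusted p = 0.826).

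Within each library *Cdk6* was a small part of the pair, 5.22 ± 0.654% of *Cdk4* and *Cdk6* together for CON and 3.99 ± 0.271% for HG (SD, n = 5 each). The share of CON 1, 4.19%, lay inside the HG range of 3.62 to 4.32%, and the other 4 CON libraries lay above it. The summed FPKM of the D cyclins per FPKM of *Cdk4* and *Cdk6* were 1.90, 1.90, 1.98, 1.90 and 2.01 in CON 1 to 5 and 1.67, 1.60, 1.50, 1.45 and 1.58 in HG 1 to 5. Thus the transcripts of the kinases stood higher against those of the D cyclins in each HG library than in any CON library, with mean ratios of 1.94 ± 0.0523 and 1.56 ± 0.0865 (SD, n = 5 each, described without a test).

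**Figure D3:**
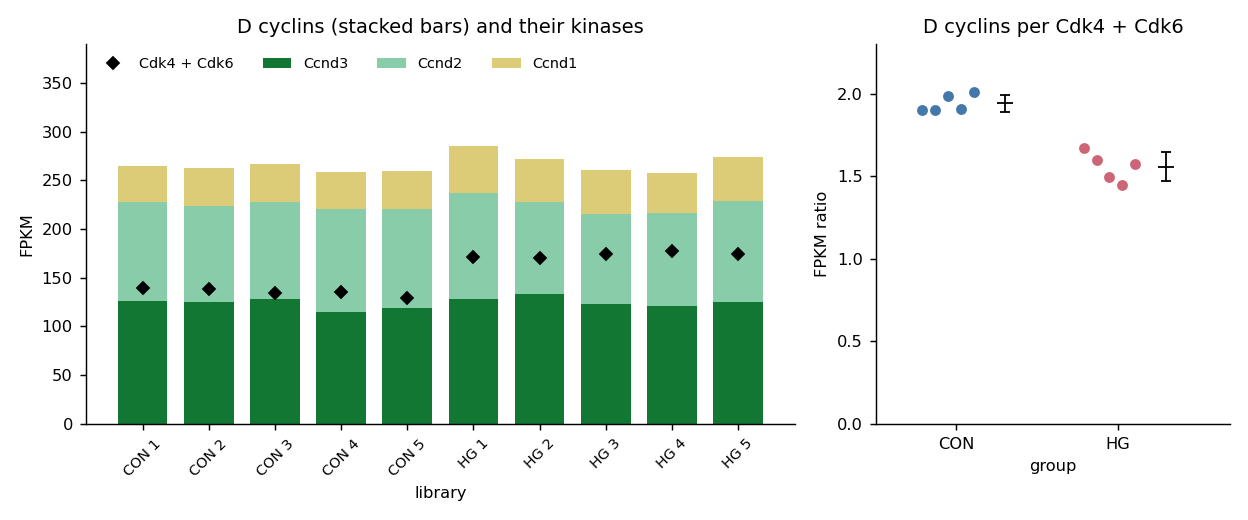
Left, FPKM of *Ccnd3*, *Ccnd2* and *Ccnd1* as stacked bars and of *Cdk4* plus *Cdk6* as diamonds in each of the 10 libraries. Right, the ratio of the summed D cyclins to *Cdk4* plus *Cdk6* in each library with the mean ± SD (n = 5), which lay between 1.90 and 2.01 in CON and between 1.45 and 1.67 in HG.

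Both E cyclins and their kinase *Cdk2* were higher in HG. *Ccne1*, which encodes cyclin E1, was the more abundant E cyclin. *Ccne1* (NCBI Gene 25729) was at 13.0, 12.6, 11.2, 14.7 and 12.9 FPKM in CON 1 to 5 and at 15.6, 16.7, 15.1, 16.6 and 15.4 FPKM in HG 1 to 5. CON 4 lay just below the lowest HG library, HG 3, and the groups did not overlap. The means were 12.9 ± 1.25 FPKM for CON and 15.9 ± 0.722 FPKM for HG (± SD over 5 libraries), a difference of 0.31 on the log2 scale (SE 0.0647, 95% confidence interval 0.17 to 0.45, adjusted p = 0.00270). The level was 1.24-fold higher (interval 1.12 to 1.36). *Ccne1* had the fewest reads of the 10 genes in a library, 402. Its coefficient of variation was 9.68% in CON, above the 4.60% that read counting alone gives, and 4.54% in HG, close to the 4.16% from counting.

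*Ccne2* encodes cyclin E2. *Ccne2* (NCBI Gene 362485) was at 10.8, 11.1, 10.9, 10.6 and 11.3 FPKM in CON 1 to 5 and at 11.5, 12.1, 11.9, 13.8 and 12.1 FPKM in HG 1 to 5. The groups were apart, with HG 1 next to the CON range and HG 4 well above the other HG libraries. The log2 fold change was 0.16 (SE 0.0518, 95% confidence interval 0.05 to 0.28, adjusted p = 0.0249). This call was lost with median-of-ratios factors (log2 fold change 0.07, adjusted p = 0.338), after quantile normalization (adjusted p = 0.319), with the replicate number as a block (adjusted p = 0.0617) and without CON replicate 4 (adjusted p = 0.0561).

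*Cdk2* encodes the kinase that both E cyclins activate. *Cdk2* (NCBI Gene 362817) was at 23.3, 24.5, 24.5, 25.2 and 25.6 FPKM in CON 1 to 5 and at 29.0, 30.8, 27.8, 32.5 and 30.5 FPKM in HG 1 to 5. All HG libraries lay above the CON range. The means were 24.6 ± 0.881 FPKM for CON and 30.1 ± 1.77 FPKM for HG (± SD over 5 libraries), a difference of 0.29 on the log2 scale (SE 0.0461, 95% confidence interval 0.19 to 0.39, adjusted p = 0.000468), and 0.20 with median-of-ratios factors (adjusted p = 0.00888). The level was 1.22-fold higher (interval 1.14 to 1.31).

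Summed over both E cyclins, HG libraries held 28.1 ± 1.43 FPKM (26.9 to 30.4) and CON libraries 23.8 ± 1.14 FPKM (22.1 to 25.2). *Ccne1* was 54.0 ± 2.73% of this sum for CON and 56.4 ± 1.37% for HG, with overlapping groups.

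The inhibitor *Cdkn1b* was also higher in HG. *Cdkn1b* (NCBI Gene 83571) was at 31.4, 28.9, 29.0, 29.6 and 29.6 FPKM in CON 1 to 5 and at 31.3, 33.4, 37.6, 34.2 and 33.9 FPKM in HG 1 to 5. HG 1 lay just below CON 1, and the other 4 HG libraries were above all of CON. On the log2 scale HG minus CON was 0.20 (SE 0.0477, 95% confidence interval 0.09 to 0.30, adjusted p = 0.00634), and with median-of-ratios factors it was 0.11 and no longer called (adjusted p = 0.104). Per FPKM of the D cyclins, *Cdkn1b* stood at 0.113 ± 0.00380 for CON and at 0.127 ± 0.0130 for HG, and the groups overlapped (SD, n = 5 each).

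*Rb1*, the least abundant of the 10 genes, did not pass the test. *Rb1* (NCBI Gene 24708) was at 3.83, 3.92, 3.76, 3.76 and 4.72 FPKM in CON 1 to 5 and at 3.43, 3.15, 3.97, 3.98 and 4.63 FPKM in HG 1 to 5. The groups overlapped, and the highest library of both was replicate 5. The log2 fold change was -0.07 (SE 0.104, 95% confidence interval -0.29 to 0.16, adjusted p = 0.643), the widest interval of the 10 genes.

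In an exact two-sided permutation test of the mean FPKM over all divisions of the 10 libraries into 5 and 5, *Ccnd1*, *Ccne1*, *Ccne2*, *Cdk2* and *Cdk4* each gave p = 0.00794, below which no p can fall with these group sizes, and *Cdkn1b* gave p = 0.0159. The other 4 genes gave p between 0.341 and 0.746 in this exact test. For the 5 genes at 0.00794 the lack of overlap between the groups alone fixes this p, so that the test adds nothing to it. FPKM are per length of the gene, so that the levels of the genes can be set in order. In CON the order of the mean FPKM was *Cdk4* (128), *Ccnd3* (123), *Ccnd2* (101), *Ccnd1* (38.7), *Cdkn1b* (29.7), *Cdk2* (24.6), *Ccne1* (12.9), *Ccne2* (10.9), *Cdk6* (7.06) and *Rb1* (4.00). The ranges of neighbours in this order were apart except those of *Cdk4* and *Ccnd3*, where *Cdk4* was higher in 4 of 5 libraries, and those of *Ccne1* and *Ccne2*, where *Ccne1* was higher in 5 of 5. In HG the order was the same, and the only neighbours whose ranges overlapped were *Cdkn1b* and *Cdk2*. *Cdk4* had a mean level over the 10 libraries above 96.8% of all genes tested, *Ccne1* above 67.6% and *Rb1* above 37.2%.

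The genes whose pattern over the 10 libraries was nearest to that of the 3 genes with the smallest adjusted p were sought among 11708 genes, as the root mean square difference of log2(FPKM + 0.1), each gene being set relative to its own CON mean. For *Cdk4* these were *Sfxn1* (0.0321), *Armcx2* (0.0338) and *Fbl*, which encodes the nucleolar protein fibrillarin (0.0367). For *Cdk2* they were *Kctd3* (0.0415), *Nup93*, which encodes a nuclear pore protein (0.0448), and *Cdr2l* (0.0448). For *Ccnd1* they were *Tbpl1* (0.0388), *Pcgf3* (0.0390) and *Kctd20* (0.0394). Such lists order likeness in these libraries and carry no test.

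Genes that act on or with the G1 machinery were counted in 5 lists, written by role with earlier results of these data known. Of their 65 genes 63 were tested. Of these, 28 were higher and 6 were lower in HG, while 29 did not pass the test, and the median log2 fold change was 0.12, near the 0.09 of all genes. With median-of-ratios factors 18 were higher and 7 were lower. Of all genes tested, 28.4% were higher and 11.8% lower, or 15.6% and 17.5% with median-of-ratios factors. Each list count below is to be read beside these shares, and no list was tested as a set. None reached the study's fold threshold.

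Among 7 other inhibitors of cyclin-dependent kinases, 5 were tested and only *Cdkn1c* rose. *Cdkn1c* encodes p57Kip2, a relative of p27Kip1, and went from 74.0 ± 4.12 FPKM to 100.5 ± 11.5 FPKM (SD, n = 5 each). Its log2 fold change was 0.43 (SE 0.0725, adjusted p = 0.000598), and no HG library overlapped CON. *Cdkn1a*, which encodes p21 and is a p53 target, was at -0.16 on the log2 scale without passing the test (adjusted p = 0.228), and *Cdkn2c*, which encodes the Cdk4 and Cdk6 inhibitor p18Ink4c, was at -0.21 (adjusted p = 0.0744) and was called lower only with median-of-ratios factors (adjusted p = 0.0249). *Cdkn2a* and *Cdkn2b*, genes of further Cdk4 and Cdk6 inhibitors, had mean levels of at most 0.0396 FPKM in either group and were under the filter.

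Of 17 relatives and partners of *Rb1* (pocket proteins, E2F and DP factors and the MuvB core), 9 were higher and 2 were lower, with a median of 0.14. The most firmly higher were *Tfdp1*, which encodes the DP1 partner of the E2Fs (33.6 to 39.8 FPKM, log2 fold change 0.25, adjusted p = 0.000345), *E2f7*, an atypical repressor (0.40, adjusted p = 0.000908), and *E2f5*, a partner of the pocket proteins (0.40, adjusted p = 0.00267). The repressor *E2f6* (74.3 to 64.5 FPKM, log2 fold change -0.20, adjusted p = 0.00235) and the MuvB subunit *Lin52* (-0.34, adjusted p = 0.0159) were lower. With median-of-ratios factors 4 of the 17 were higher and 2 lower.

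Of 13 genes for the turnover of cyclins and p27, 6 were higher and 1 was lower, with a median of 0.12. *Skp2* encodes the F-box protein that marks p27, and it rose from 9.74 ± 0.661 FPKM to 14.0 ± 0.374 FPKM (SD, n = 5 each; log2 fold change 0.52, SE 0.0519, adjusted p = 1.80e-05). Its cofactor *Cks1b* rose as well (49.6 to 66.5 FPKM, 0.42, adjusted p = 8.53e-05), as did *Cks2* (60.9 to 77.0 FPKM, 0.34, adjusted p = 0.00216). *Skp1*, which encodes a core subunit of the same ligase, did not pass the test (0.04, adjusted p = 0.563). The other core subunits *Cul1* (0.17, adjusted p = 0.00917) and *Rbx1* (0.12, adjusted p = 0.00797) were higher. Neither was called with median-of-ratios factors (adjusted p = 0.154 and 0.495). With median-of-ratios factors 3 of the 13 were higher and 1 lower, with a median of 0.03. *Fbxo4*, which encodes an F-box protein linked to cyclin D1, was lower (-0.28, adjusted p = 0.0449), a call lost under 12 of the 22 alternatives.

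Of 9 genes for the chaperone of the kinases and for proteins that set their activity by phosphorylation, 6 were higher and 0 were lower, with a median of 0.32. They include *Cdc25a*, which encodes a phosphatase that activates Cdk2 (14.4 to 18.7 FPKM, 0.37, adjusted p = 9.22e-05), *Mnat1*, which encodes a subunit of the CDK-activating kinase (0.36, adjusted p = 0.00121), and *Pkmyt1*, which encodes an inhibitory kinase of Cdk1 (0.37, adjusted p = 0.00171). With median-of-ratios factors 5 of the 9 were higher and 0 lower.

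Of 19 transcription factors known to act on G1 genes, 6 were higher and 3 were lower, with a median of 0.09. With median-of-ratios factors 5 were higher and 3 lower. *Mycn*, which encodes the Myc family member that is prominent in the embryonic heart, rose from 12.9 ± 0.876 FPKM to 20.6 ± 2.55 FPKM (SD, n = 5 each; log2 fold change 0.66, SE 0.0802, adjusted p = 6.60e-05). For *Myc* itself this value was -0.04 (adjusted p = 0.630). *Foxm1*, an activator of later cell cycle genes (0.37, adjusted p = 0.000176), and the homeobox gene *Meis2* (0.29, adjusted p = 0.00107) were higher. Lower were *Foxo3* (-0.30, adjusted p = 0.00156) and *Foxo4* (-0.17, adjusted p = 0.00855), which encode forkhead factors known to activate *Cdkn1b*, and *Mxd4*, which encodes an antagonist of Myc (-0.18, adjusted p = 0.0235).

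Downstream of G1, 18 of 24 E2F targets of S phase were higher and 0 were lower, with a median of 0.21, and 8 were higher with median-of-ratios factors. Examples are *Tk1*, thymidine kinase (24.7 to 32.6 FPKM, 0.40, adjusted p = 2.27e-05), and the replicative helicase subunits *Mcm7* (0.41, adjusted p = 0.000150) and *Mcm3* (0.31, adjusted p = 0.000318). Of 13 genes of S, G2 and M phases, 12 were higher under either scaling and 0 were lower, with a median of 0.45. The mitotic cyclins *Ccnb1* (33.4 to 50.4 FPKM, 0.59, adjusted p = 1.20e-06) and *Ccnb2* (0.45, adjusted p = 1.81e-06) and *Birc5*, which encodes survivin (0.56, adjusted p = 2.47e-06), are among them. The log2 fold changes of these 3 genes were above that of *Cdk4*, the highest of the G1 genes, and the differences between genes were not tested.

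Of 23 other cyclins and kinases, 8 were higher and 2 were lower, with a median of 0.14. With median-of-ratios factors 6 were higher and 2 lower. *Ccng2* (0.62, adjusted p = 0.000105), *Cdk9*, the kinase of transcription elongation (0.39, adjusted p = 0.000156), and *Cdk17* (0.31, adjusted p = 0.000818) were higher. *Ccng1*, a p53 target, fell from 153 ± 9.24 FPKM to 101 ± 8.77 FPKM (SD, n = 5 each; -0.61, adjusted p = 1.58e-05), and *Ccnk*, a partner of the transcriptional kinases, was lower as well (-0.16, adjusted p = 0.0198).

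**Figure D4:**
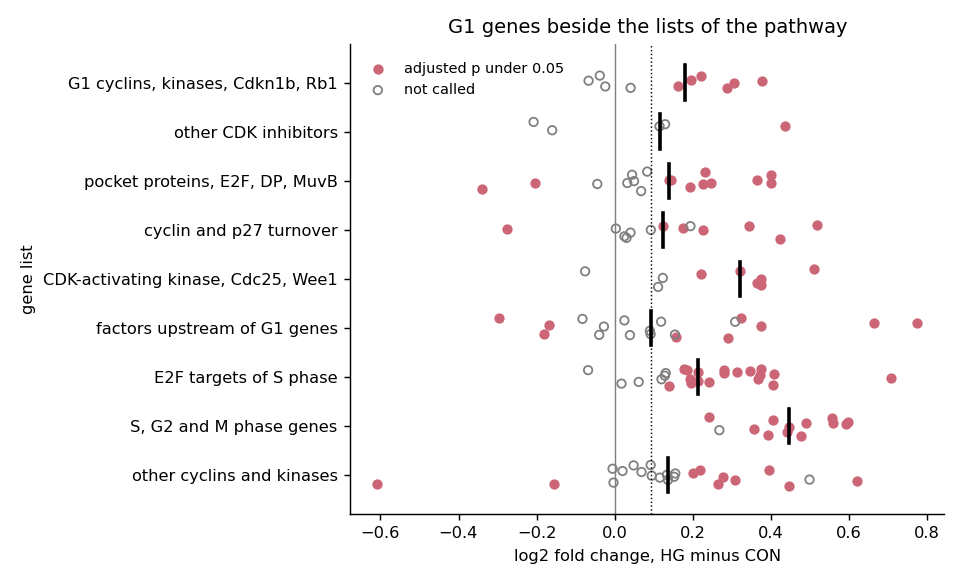
log2 fold change (horizontal axis, HG minus CON) of each tested gene in the 10 G1 genes and in 8 lists of the pathway, filled where the adjusted p of limma was under 0.05, with the median of a list as a black bar and the median of all genes, 0.09, as a dotted line. The vertical scatter within a list only separates the points, and the list medians run from 0.09 for the upstream factors to 0.45 for the genes of S, G2 and M phases.

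The cell types of the samples were looked at with marker lists, chosen with earlier results of these data known. The shares over all genes tested were 28.4% higher and 11.8% lower, or 15.6% and 17.5% with median-of-ratios factors. Cardiomyocyte markers were abundant in all 10 libraries, with summed levels of 27030 to 28370 FPKM in CON and 21550 to 24790 FPKM in HG, and 8 of 11 were lower and 0 higher in HG. *Tnnt2*, cardiac troponin T, was among the lower ones (log2 fold change -0.29), and *Actc1*, cardiac actin, did not pass the test (-0.16, adjusted p = 0.114). Of 8 fibroblast markers 2 were higher, *Pdgfra* and *Tcf21*, and 4 were lower, *Col3a1*, *Dcn*, *Lum* and *Postn* (sums 1724 to 2010 FPKM in CON, 1556 to 1785 FPKM in HG). Of 7 endothelial markers 2 were higher and 0 lower (266 to 288 FPKM and 274 to 300 FPKM), with *Pecam1* and *Cdh5* not called. Of 7 smooth muscle and pericyte markers 3 were higher, *Cnn1*, *Acta2* and *Tagln*, and 2 were lower, *Rgs5* and *Cspg4*. *Myh11* did not pass the test (0.24, adjusted p = 0.183). The sums were 778 to 902 FPKM and 989 to 1242 FPKM, of which *Acta2* was the largest part, with means of 538 FPKM in CON and 673 FPKM in HG. Of 7 macrophage markers 3 were higher, among them *Cd68* but not *Csf1r*, and 1 was lower (28.8 to 35.9 FPKM and 33.1 to 43.7 FPKM). The lower one was *Cd163*, with means of 0.721 FPKM in CON and 0.157 FPKM in HG. Of 10 red cell markers 9 were listed in the table and tested, and of these 0 were higher and 7 lower, *Slc4a1* but not *Alas2* among them (7014 to 12560 FPKM and 5176 to 7263 FPKM). Of 6 epicardial markers 2 were higher, *Aldh1a2* and *Tbx18*, and 1 was lower, *Upk1b*, with *Wt1* and *Upk3b* not called (29.2 to 34.0 FPKM and 35.0 to 42.2 FPKM). In these sums *Aldh1a2* (means 10.7 FPKM in CON and 14.1 FPKM in HG) and *Tbx18* (9.38 and 13.6 FPKM) were the largest parts. Of 6 neuron and glia markers 3 were tested and 1, *Dbh*, was lower, while *Th* was under the filter (5.85 to 6.40 FPKM and 4.70 to 6.88 FPKM). The 4 lung and thymus markers found in the table, of 6, were all under the filter and summed to at most 0.105 FPKM in any library, and *Sftpc* was at 0 in all CON libraries. With median-of-ratios factors 9 of the cardiomyocyte markers were lower, *Actc1* among them (adjusted p = 0.0463), and of the fibroblast markers 2 were higher and 6 lower. Of the endothelial markers 1 was then higher and 1 lower, the latter being *Pecam1* (log2 fold change -0.15, adjusted p = 0.0171). Under this scaling 2 macrophage markers were higher and 1 lower, and 8 red cell markers were lower, *Alas2* among them (adjusted p = 0.0353), while the counts of the smooth muscle, epicardial and neuron lists were as with FPKM as deposited. The G1 genes are expressed in many of these cell types, and the part of the cell types in their values was not tested.

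Hemoglobin genes held 2.27 to 4.21% of the FPKM in CON and 1.86 to 2.56% in HG. With them left out 6 of the 10 were again called higher, beside 3736 higher and 1787 lower among all 14565 genes then tested. The Y-linked gene *Eif2s3y* was at 31.8 to 35.0 FPKM in 4 libraries (CON 1 and 4, HG 1 and 3) and at no more than 0.0931 FPKM in the other 6. With the Y-linked level as a covariate 6 of the 10 were called higher, beside 4009 higher and 1676 lower among all 14542 genes.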

How the data were processed

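Messenger RNA of fetal rat hearts was sequenced with a stranded library kit in 5 CON and 5 HG libraries. The authors deposited FPKM, read numbers divided by gene length and library size. The submitters' processing notes name fastp, HISAT2, HTSeq, R 3.2.0 and the mRatBN7.2 build, without their roles. The methods of the study mention a library from pooled RNA of 10 samples, whereas the deposited columns differ between libraries (smallest chi-square per degree of freedom between any 2 libraries, 5.94). No per-sample column was left unused (0).

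The steps between FPKM values gave whole reads (tolerance 0.001 reads) for 100% of the 18025 genes. CON libraries held 17639895 to 18240006 reads on genes, HG libraries 16672876 to 19109844, and a single G1 gene 402 to 5689 per library. Counting errors from these reads cover counting only.

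The filter kept genes averaging 0.1 FPKM or more. Their log2(FPKM + 0.1) values entered a linear model in limma 3.58.1 (R 4.3.3; empirical Bayes, trend, no covariate), with Benjamini-Hochberg adjustment over 14542 genes and calls at 0.05. Fold changes on this scale understate those of low genes. DESeq, which the study used, takes counts and was not applied, although whole reads were recovered. Single values were compared with exact permutation tests (Python 3.11.15, scipy 1.17.1, numpy 2.4.6, pandas 2.3.3), and figures were drawn with matplotlib 3.10.9. The model was tested on simulated data. The G1 genes, the 8 pathway lists and the 10 marker lists were chosen with earlier results of these data known. Besides the 10 G1 genes, named genes were up to 3 higher and 3 lower of each pathway list by adjusted p, the first 2 of each marker list (*Sftpb* was not analysed here), and the 3 nearest genes averaging 1 FPKM or more. *Cdkn1a*, *Cdkn2a*, *Cdkn2b*, *Cdkn2c*, *Myc*, *Skp1*, *Cul1*, *Rbx1*, *Eif2s3y* and any further marker genes were named after their values were seen. The 22 alternatives changed the pseudocount, filter, scaling, covariates, weights, trend or tool (voom on recovered reads), left out 12 hemoglobin genes, or left out each library.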

Additional observations from a re-analysis of the deposited data

Results flagged for a closer look

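Among 38 groups of 5 libraries, those of the 10 G1 genes and of the shares and sums within the family, 2 held a library far from the others by Dixon's criterion (critical ratio 0.71), and chance alone flags about 1 in 20 groups. *Ccne2* was highest in HG replicate 4, at 13.76 FPKM, with the nearest HG library at 12.14 FPKM (ratio 0.712). Without this library the log2 fold change of *Ccne2* was 0.12 (adjusted p = 0.0449). *Rb1* was highest in CON replicate 5, at 4.722 FPKM, with the nearest CON library at 3.921 FPKM (ratio 0.832). Without it the log2 fold change of *Rb1* was -0.01 (adjusted p = 0.965).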

How the results depend on the processing

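Over the 22 alternatives, *Ccnd1*, *Ccne1*, *Cdk2* and *Cdk4* were called higher in each, *Cdkn1b* in 21 and *Ccne2* in 18, and 0 of the 10 genes were called lower in any. The count of G1 genes called higher was 4 with median-of-ratios factors, 5 after quantile normalization, 5 with the replicate block and 5 to 6 when each library was left out, the 5 being without CON replicate 4, where *Ccne2* was not called. The count of genes higher in the 5 pathway lists was 28 and went to 18 with median-of-ratios factors, which took the median log2 fold change of all genes from 0.09 to 0.01. The log2 fold change of *Ccnd3* changed sign with median-of-ratios factors (-0.050), and the Cdk6 log2 fold change ran from -0.090 to 0.011 over the libraries left out, with 0.011 without CON replicate 5 and 0.00082 without HG replicate 4, none of them called. Over all genes, 4127 were higher and 1709 lower, against 2271 and 2551 with median-of-ratios factors and 2615 and 2317 after quantile normalization. Of the values of the named pathway genes under the alternatives, 644 kept direction and call and 15 lost the call. Deviations of same-numbered libraries correlated between -0.126 and 0.108, and those of other CON and HG libraries between -0.156 and 0.213. The labels do not say whether replicate numbers mark pairs, and these values cannot settle it. With the replicate block, *Ccne2* stood at 0.16 on the log2 scale (adjusted p = 0.0617). Depth gave counting errors of 1.82 to 4.60% in *Ccnd1* and *Ccne1*, so that smaller differences between single libraries were not detectable there. For genes near 0.1 FPKM fold changes were not read.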
